A study of Mus musculus with 2 samples.

Results

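Long intergenic noncoding RNAs (lincRNAs) with ample counts were examined in Dicer_KO mouse embryonic stem cells (mESCs). These genes were selected on measured values, as the genes of GENCODE biotype lincRNA on autosomes whose mean over both libraries was at least 50 counts. The imprinted transcripts Meg3, Rian, Mirg, H19, Kcnq1ot1, Airn and Peg13, the small nucleolar RNA hosts Gas5 and Zfas1, and symbols starting with Snhg were left out by the same rule. The rule kept 163 of the 43629 genes listed. Of the 2777 lincRNA genes listed, 1666 were at 0 counts in both libraries, 935 had counts but a mean under 50, and 176 reached the minimum. The 13 that reached it and were left out were 7 genes on the X or Y chromosome and 6 of the named transcripts.

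Both libraries carry the labelled genotype Dicer knockout on the 129/Ola background, and their cells were at passage 7 for replicate 1 and passage 4 for replicate 2. The cells derive from the E14TG2a line, which was cultured in serum with LIF, and single clones with CRISPR/Cas9 deletions inside Dicer1 were isolated from it. The study made 2 independent deletion lines, and the labels do not give the deletion carried by either library. Clone, passage and library therefore cannot be told apart, no wild-type library was analysed here, and every difference below is between these 2 libraries with no test of a condition.

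LincRNAs are transcribed from intervals between protein-coding genes, and most are spliced and polyadenylated like mRNAs but not translated. DICER is the RNase III enzyme that cuts miRNA precursors to mature miRNAs, and lincRNAs are not its usual substrates. Some lincRNAs are nevertheless tied to miRNAs, as host transcripts from which miRNA hairpins are excised or as RNAs that carry miRNA sites. In mESCs several lincRNAs are known for expression that follows the pluripotent state.

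The libraries held 41710122 and 41566184 counts on genes, so that 3 counts, the limit that a count of 0 allows, correspond to 0.0719 and 0.0722 CPM (counts scaled to the library total). Dicer1 had 1343 counts in replicate 1 and 1510 in replicate 2, a value over the whole gene that does not test the deleted exons. The mESC markers Pou5f1, Nanog, Sox2, Zfp42, Esrrb, Klf4, Tfcp2l1 and Dppa5a all had over 50 counts, with 4 of the 8 log2 ratios above 0, 4 below and a median of 0.06. Their summed level was 9313 CPM in replicate 1 and 6085 CPM in replicate 2, a gap that came mostly from Dppa5a with 4792 and 2041 CPM. Of the 7 fibroblast markers, Thy1 had 823 and 621 counts and Pdgfra 83 and 87, while Col1a1, Col1a2, Col3a1, Lum and Dcn had 20 counts or fewer in both libraries. Summed trophectoderm markers stood at 195 CPM and 33.6 CPM, nearly all of it from Krt8, and summed primitive endoderm markers at 16.2 CPM and 8.52 CPM. The part of these cell states in the lincRNA values was not tested.

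The miRNAs inside the host lincRNAs are shown because their production is the step that DICER carries out. The RefSeq (GRCm38.p6) miRNA sequences used here place 24 mature miRNAs inside 6 of the 163 lincRNAs on the same strand. Seeds, bases 2 to 8 of the mature strand, are in capitals. Mir17hg, the primary transcript of the miR-17-92 cluster, carries 2 miRNAs with the seed AAAGUGC and 2 with the seed GUGCAAA beside miR-18a and miR-92a.
mmu-miR-17-5p: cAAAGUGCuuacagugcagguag
mmu-miR-20a-5p: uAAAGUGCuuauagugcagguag
mmu-miR-19a-3p: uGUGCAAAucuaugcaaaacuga
mmu-miR-19b-3p: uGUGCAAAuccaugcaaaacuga
mmu-miR-18a-5p: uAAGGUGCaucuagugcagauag
mmu-miR-92a-3p: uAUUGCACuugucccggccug
The uncharacterised transcript 6720427I07Rik holds 3 let-7 hairpins that share the seed GAGGUAG.
mmu-let-7a-5p: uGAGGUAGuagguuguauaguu
mmu-let-7d-5p: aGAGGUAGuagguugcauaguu
mmu-let-7f-5p: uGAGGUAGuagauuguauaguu
A single hairpin lies in each of Mir9-3hg, E130102H24Rik, Mir142hg and 2900076A07Rik, from which the following strands are shown.
mmu-miR-9-5p: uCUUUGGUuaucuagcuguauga
mmu-miR-101a-3p: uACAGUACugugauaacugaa
mmu-miR-142a-3p: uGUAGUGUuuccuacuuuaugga
mmu-miR-1839-5p: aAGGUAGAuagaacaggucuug

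GENCODE annotates a miRNA gene inside 9 lincRNAs in all. It also places Mir124a-1 and Mir3078 in Mir124a-1hg, and unnamed miRNA genes in 6030443J06Rik and Gm37245. Mature miR-124 was missing from the RefSeq miRNA sequences used here. Mir17hg was the most abundant of the 9, with 1816 counts in replicate 1 and 2414 in replicate 2. On the log2 scale, replicate 1 over replicate 2 after scaling, its ratio was -0.53 with a counting interval of -0.62 to -0.44. This and every interval below is a 95% Clopper-Pearson interval and covers counting error only. Mir124a-1hg had 75 and 267 counts (log2 ratio -1.94) and Mir9-3hg had 74 and 147 counts (log2 ratio -1.10), both hosts of miRNAs known from neurons. The let-7 host 6720427I07Rik was nearly level at 217 and 231 counts. E130102H24Rik, host of miR-101a, had 142 and 159 counts. Mir142hg, whose miRNA is best known from blood cells, was higher in replicate 1 at 195 against 109 counts (log2 ratio 0.71), as was 2900076A07Rik at 165 against 114.

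Across the 9 hosts the median log2 ratio was -0.53, against -0.30 over the 163 lincRNAs and 0.01 over all 14314 genes that averaged 50 counts or more. Of these hosts, 3 were over 2-fold lower in replicate 1, as were 4.76% of all genes and 17.8% of the 163 lincRNAs. None was over 2-fold higher, against 11.5% of all genes and 6.75% of the lincRNAs. Of the 3, Mir9-3hg was within 2-fold with scaling by total counts or with raw counts. Reads from a hairpin that has been cut out are not polyadenylated, so these counts describe the host transcript and not the mature miRNA.

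A few transcripts held most of the lincRNA counts. The 163 lincRNAs took 0.526% of the counts in replicate 1 and 0.603% in replicate 2, and 75.4% and 74.5% of that came from Gm42418, Malat1, Lncenc1, 1700020I14Rik and Neat1. Gm42418 alone, which RefSeq names Rn18s-rs5 for its relation to 18S ribosomal RNA, accounted for 46.6% and 43.5%. It is a single exon of 1831 bases at chr17:39846958-39848788 (GRCm38), 616 bases from Gm26917, and 95.0% of its 50-base windows also occur in transcripts of other annotated genes. Its counts are therefore uncertain, and without Gm42418 and Gm26917 the share of counts was 0.273% and 0.3345%.

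By level per length, in CPM per kb of merged exons, the median lincRNA stood at 2.63 (quartiles 0.962 and 6.31) and the median protein-coding gene with the same count minimum at 6.77 (quartiles 2.37 and 16.6). LincRNAs had a median of 3 exons in the transcript with most exons, against 10 for protein-coding genes, and 14 of the 163 had a single exon. After Gm42418, the highest levels were those of Gm10076 with 278 CPM per kb in replicate 1 and 233 in replicate 2, Lncenc1 with 153 and 148, Malat1 with 97.9 and 137, and Platr10 with 51.6 and 88.4. Gm10076 is a transcript of 384 bases that shares 69.9% of its 50-base windows with Rpl41, a ribosomal protein gene, and related sequences, so that its counts may hold reads of those genes.

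Malat1, a nuclear RNA that collects in splicing speckles, had 28517 counts in replicate 1 and 39664 in replicate 2, a log2 ratio of -0.60 (interval -0.62 to -0.58). Neat1, the RNA scaffold of paraspeckles, had 4983 and 7564 counts, a log2 ratio of -0.72 (interval -0.78 to -0.67). The genes lie 22.0 kb apart on the minus strand of chromosome 19, and both were lower in replicate 1 by a similar factor. The nearest expressed protein-coding neighbour of Neat1, Frmd8, had a ratio of 0.01. Of 20 genes for proteins that work with nuclear noncoding RNA, the paraspeckle and speckle proteins among them, none differed over 2-fold, against 16.2% of all genes. Most of these 20 averaged over 1000 counts, a range in which 6.72% of protein-coding genes differed over 2-fold. With 20 genes, none past 2-fold cannot be told from that share. Their median log2 ratio was -0.24, with 16 below 0 and 4 above. Nono and Pspc1, core paraspeckle proteins, were at 0.10 and 0.12, and Sfpq was at -0.30.

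Lncenc1, a transcript known for naive mESCs, was among the most even, with 21059 and 20243 counts and a log2 ratio of -0.07 (interval -0.09 to -0.04). That sign depends on the scaling, since the ratio turned above 0 with scaling by total counts or with raw counts. 1700020I14Rik, which RefSeq names Oip5os1 and which is also known as Cyrano, had 8709 and 10133 counts, a log2 ratio of -0.34. Cyrano is known for a long site that pairs with miR-7 and directs its degradation. That site is shown because its partner is a miRNA that needs DICER. The miRNA and the site in the last exon of the longest transcript (chr2:119602134-119602161, plus strand, GRCm38) are given with the seed and its match in capitals.
mmu-miR-7a-5p: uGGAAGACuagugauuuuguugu
1700020I14Rik site: agaacaacaaaatcaccaatGTCTTCCa
Upstream of the seed match, after 2 unpaired bases in the transcript, 14 of the 15 remaining miRNA bases were matched. The same transcript holds a further seed match, where 4 of the 15 were matched at best.

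2900097C17Rik, named Norad in RefSeq, is known as an abundant cytoplasmic RNA that binds the Pumilio proteins through many copies of their motif. It had 304 and 318 counts, 1.48 and 1.56 CPM per kb, a log2 ratio of -0.19 (interval -0.42 to 0.04). The motif TGTANATA, searched on the transcript strand, occurred 11 times in its 4915 bases, more than in any other of the 163 longest transcripts. Over the set, 39 of 163 (23.9%) held the motif, against 31.3% of 12707 protein-coding genes, whose longest transcripts are longer (median 3433 against 1972 bases). Per kb, the order turned, with 0.174 motifs in lincRNAs and 0.121 in protein-coding genes. Of the 68 lincRNA motifs, however, 11 lay in 2900097C17Rik and 9 in the related Gm7292, so the value per kb leans on this pair. Of the 11 copies, 3 are shown named by their position in the transcript (minus strand of chr2:156388065-156392979, GRCm38), with flanking bases on either side and the motif in capitals.
2900097C17Rik copy at 651: agaagtcctgTGTATATAatatgaaaaa
2900097C17Rik copy at 1829: gtgtgtatacTGTATATAatggacaaat
2900097C17Rik copy at 3526: agtgagaaagTGTACATAacggattggt
Next in the number of motifs was Gm7292 on chromosome 6, with 9 copies, which shares 77.5% of its 50-base windows with 2900097C17Rik. Gm7292 had 137 and 155 counts. How reads that match both genes were counted is not stated, so the counts of this pair are uncertain. The Pumilio gene Pum2 had a log2 ratio of -0.19.

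**Figure D1:**
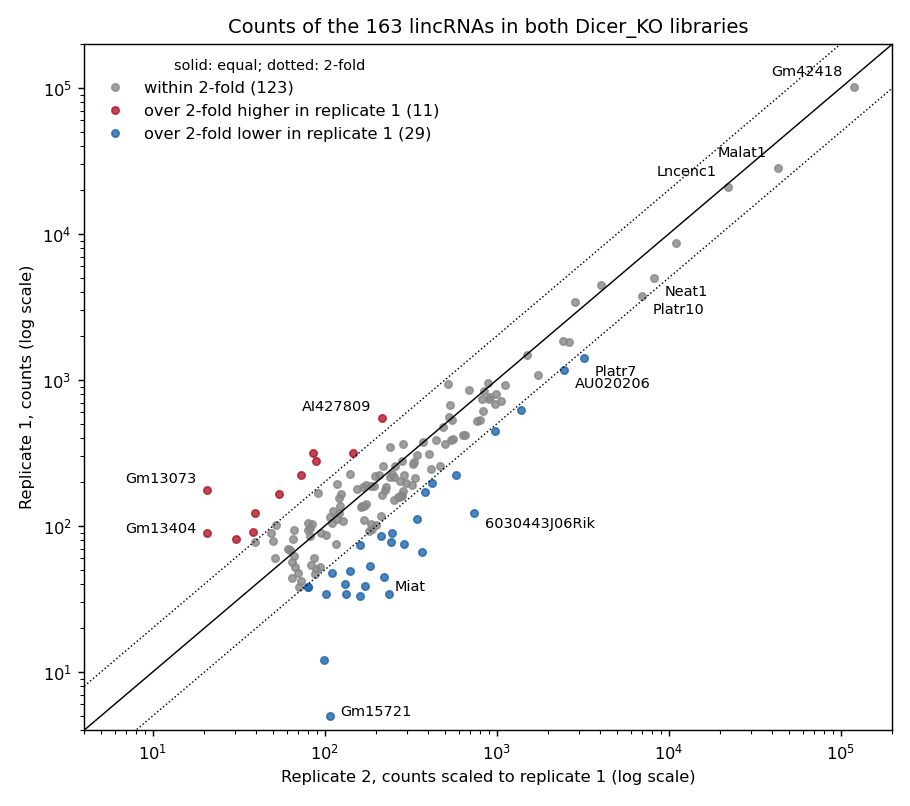
Counts of the 163 lincRNAs, replicate 2 scaled to replicate 1 on the x axis and replicate 1 on the y axis, both on log scales. Each point is 1 lincRNA, the solid line marks equal counts and the dotted lines 2-fold; 29 points lie below the lower dotted line and 11 above the upper one, with Gm42418 and Malat1 at the top right.

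Between the libraries the lincRNAs leaned towards lower values in replicate 1. After scaling replicate 2 to replicate 1 by the trimmed mean of M-values (TMM), their median log2 ratio was -0.30 (quartiles -0.79 and 0.13), against 0.01 over all 14314 genes with the same minimum and 0.03 over 12707 protein-coding genes. Below 0 were 111 of the 163 (68.1%) and above it 52, whereas 7092 of the 14314 genes were below 0. Over 2-fold lower in replicate 1 were 29 lincRNAs (17.8%), against 4.76% of all genes. Over 2-fold higher were 11 (6.75%), against 11.5% of all genes. Beyond 4-fold, 8 lincRNAs were lower against 0.894% of all genes, and 2 were higher against 2.79%. Of these 10, 8 had under 50 counts in the lower library and so reached the minimum only through the library where they were high, as did 18 of the 40 past 2-fold. Such genes had to differ, and their number is no support for the lean. As there is 1 library on each side, these are descriptions of the libraries.

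The lincRNA median stayed below 0 under the scalings and minimums run, but its size changed. With no filter on counts the median of 1058 lincRNAs was -0.07, near 0. The median of all genes was not computed at the other minimums, so the lean against all genes is not known there. With total counts the median was -0.19 for the lincRNAs and 0.12 for all genes, and 60.7% of lincRNAs were below 0 against 41.0% of all genes. Other polyadenylated noncoding classes with the same minimum stood as follows. The 105 antisense genes had a median of -0.29, with 18.1% over 2-fold lower in replicate 1. The 46 genes of the class TEC, annotated transcripts that still need experimental testing, were at -0.81, 829 processed pseudogenes at -0.12, and 108 processed transcripts at -0.05.

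**Figure D2:**
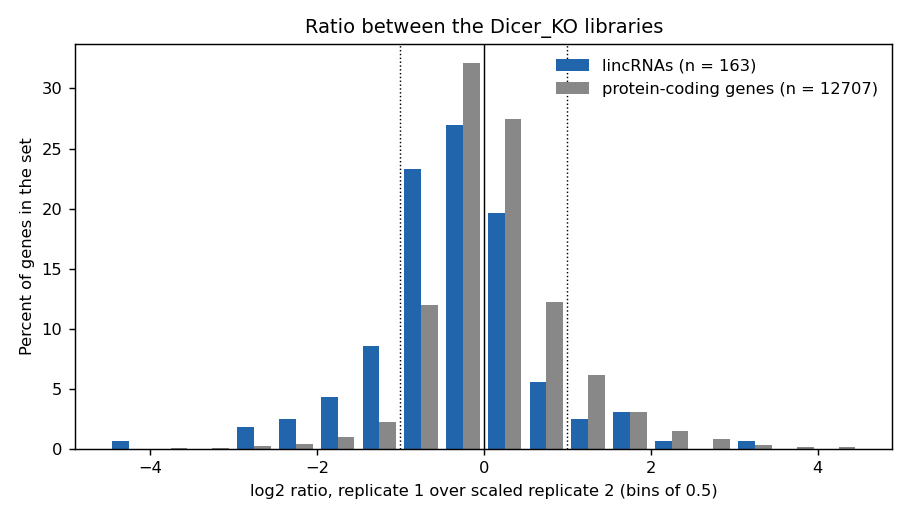
Percent of genes (y axis) in bins of 0.5 of the log2 ratio of replicate 1 over scaled replicate 2 (x axis), for 163 lincRNAs in blue and 12707 protein-coding genes in grey. The solid line marks 0 and the dotted lines 2-fold; the lincRNAs are shifted to the left, with 23.3% between -1 and -0.5 against 11.97% of protein-coding genes.

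The lincRNA median was below 0, and below that of protein-coding genes, in each of the ranges of mean counts. Among genes with 50 to 100 counts the lincRNA median was -0.23 (n = 45) and the protein-coding median 0.53 (n = 865). Among genes with 1000 counts or more, the medians were -0.47 (n = 14) and -0.09 (n = 7086). The median absolute log2 ratio of the lincRNAs was 0.80 with 50 to 100 counts, 0.32 with 500 to 1000 and 0.47 with 1000 or more. For protein-coding genes in the same ranges it was 0.88, 0.41 and 0.31. It was lower for lincRNAs than for protein-coding genes in every range under 1000 counts. Over all ranges together it was 0.54 for lincRNAs and 0.39 for protein-coding genes, sets that differ in their counts. Across the 163 genes, the log2 ratio had a Pearson correlation of 0.13 with GC content and -0.16 with log2 transcript length, points that share both libraries and are not independent.

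**Figure D3:**
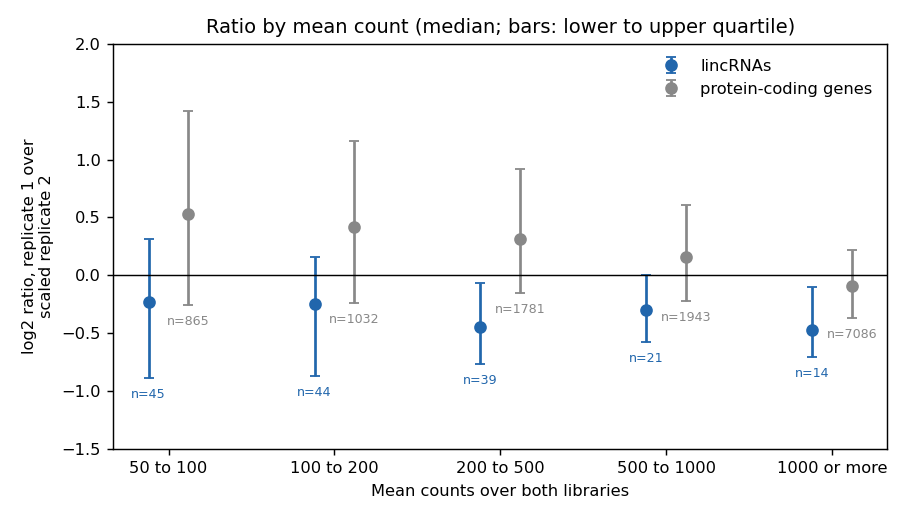
Median log2 ratio of replicate 1 over scaled replicate 2 (y axis) by mean count over both libraries (x axis), with bars from the lower to the upper quartile and the number of genes beside each. LincRNAs (blue) have medians from -0.47 to -0.23, and protein-coding genes (grey) run from 0.53 at the lowest counts to -0.09 at the highest.

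Annotation bears on the counting, because reads on overlapping regions were ignored by the authors. An exon of another gene overlapped 45 of the lincRNAs, on the opposite strand for 37 and on the same strand for 14. Their median log2 ratio was -0.54, against -0.29 for the 118 without overlap. Over 10% of the 50-base windows were shared with another gene in 30 lincRNAs, with a median of -0.48 against -0.29 for the rest. Without those 30, an alternative chosen after seeing the data, 25 lincRNAs were over 2-fold lower and 11 over 2-fold higher. Of all genes, 4.76% were lower and 11.5% higher. Whether the overlaps play a part in the ratios was not tested.

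The pluripotency lincRNAs, defined here as Lncenc1, Halr1 and symbols starting with Platr (pluripotency-associated transcript), numbered 14. Their summed level was 723 CPM in replicate 1 and 819 CPM in replicate 2, and their median log2 ratio -0.19. Most of the sum came from Lncenc1 with 505 and 487 CPM, Platr10 with 90 and 154, and Platr7 with 34 and 71. Of the 14, 9 were below 0 and 5 above it, where all genes divided into 7092 and 7222. Over 2-fold lower were 3, against 4.76% of all genes and 17.8% of the 163 lincRNAs. None was over 2-fold higher, against 11.5% and 6.75%. The median of the 163 lincRNAs was -0.30, so the list did not lean further than the set it came from. Platr4 had 112 and 315 counts (log2 ratio -1.61, interval -1.94 to -1.30). Platr7 had 1418 and 2951 counts (log2 ratio -1.18, interval -1.27 to -1.09). Platr6 had 450 and 896 counts (log2 ratio -1.11, interval -1.28 to -0.95), and with scaling by total counts it was within 2-fold.

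Platr10, the most abundant of the Platr genes in the set, had 3754 and 6410 counts, a log2 ratio of -0.89 (interval -0.95 to -0.84). In the other direction, Platr5 had 104 and 73 counts (0.38), Platr26 had 364 and 261 (0.36) and Platr11 had 258 and 200 (0.24). Halr1 had 956 and 820 counts (0.10, interval -0.04 to 0.24). The Platr genes lay on both sides of 0, and the counting intervals of Platr7 and Platr26 did not overlap. The core pluripotency genes also differed in sign, with Pou5f1 at -0.26 and Nanog at 0.74 on the log2 scale. The promoter of Platr7 is shown, from 250 bases before to 50 bases after the RefSeq start (chr10:84553289-84553588, minus strand, GRCm38.p6), because Platr7 is the most abundant lincRNA past 2-fold. It holds no CpG, and its copies of CCAAT are in capitals.
Platr7 promoter: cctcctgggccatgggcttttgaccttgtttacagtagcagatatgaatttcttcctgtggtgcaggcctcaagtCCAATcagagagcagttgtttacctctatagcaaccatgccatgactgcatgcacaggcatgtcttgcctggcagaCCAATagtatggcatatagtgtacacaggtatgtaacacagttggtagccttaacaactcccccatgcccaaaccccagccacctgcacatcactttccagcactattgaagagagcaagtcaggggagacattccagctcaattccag

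Among the 8 widely expressed lincRNAs, the median log2 ratio was -0.26, with 5 below 0 and 3 above, where the 163 lincRNAs divided into 111 and 52. Miat, a nuclear RNA known from neurons, was the only one past 2-fold, at 45 and 204 counts (log2 ratio -2.28, interval -2.80 to -1.83). With under 50 counts in replicate 1, Miat reached the minimum only through replicate 2, where it was high. Past 2-fold lower were 4.76% of all genes and 17.8% of the 163 lincRNAs, and past 2-fold higher 11.5% and 6.75%. Several short annotated genes overlap Miat. Epb41l4aos, with 52.2 and 26.7 CPM per kb, had 937 and 478 counts and a ratio of 0.85 (interval 0.69 to 1.01). Trp53cor1, known as lincRNA-p21 for its induction by p53 next to Cdkn1a, had 60 and 47 counts, with Cdkn1a at 0.80. The developmental list had a single gene with enough counts, Bvht, a heart lineage transcript known as Braveheart, with 256 and 234 counts. The other developmental genes listed had at most 36 counts in either library, and Hotair was at 0 in both.

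**Figure D4:**
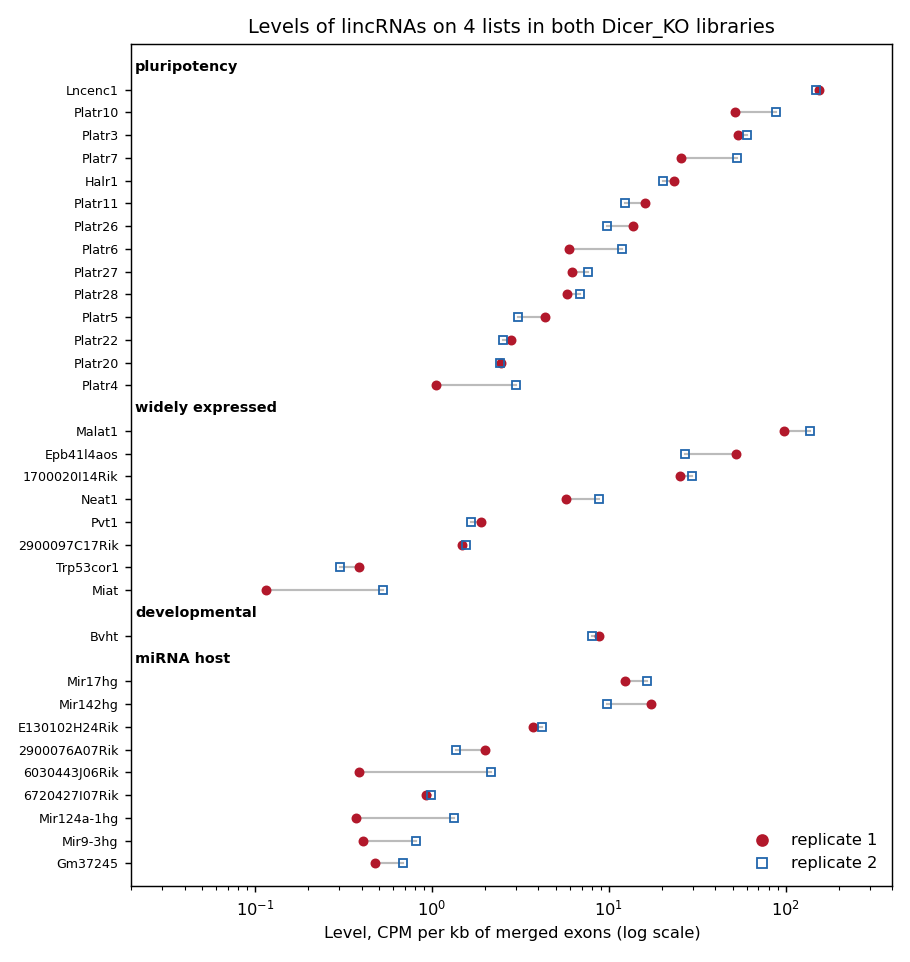
Level in CPM per kb of merged exons (x axis, log scale) of the lincRNAs on 4 lists, replicate 1 as filled circles and replicate 2 as open squares, joined by a line for each gene. Lncenc1 and Malat1 lie above 90 in both libraries, and the widest gaps are those of 6030443J06Rik, Miat and Mir124a-1hg, each lower in replicate 1.

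The largest differences were found among less known transcripts. Gm15721 had 5 counts in replicate 1 and 98 in replicate 2, a log2 ratio of -4.17 with a wide interval of -6.07 to -3.14. With a mean of 51.5 it lay at the minimum and passed it only through replicate 2. Its start lies 154 bases from that of Mtus2, on the opposite strand, and Mtus2 had a ratio of -0.21. The others over 4-fold lower in replicate 1 were Gm26883, 1700057H21Rik, 6030443J06Rik, Gm28187, Miat, 5330413P13Rik and Gm26685, named after their values were seen where they had a mean under 200 counts. Gm26883 shares 98.6% of its 50-base windows with Tshz2, whose exons overlap it.

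6030443J06Rik had the lowest ratio among lincRNAs that averaged 200 counts or more, with 122 and 677 counts (-2.58, interval -2.88 to -2.31). Its start lies 3 bases from that of Orc5, a subunit of the origin recognition complex transcribed the other way, and Orc5 had a ratio of -0.65. The promoter shared by the pair (chr5:22550163-22550462, plus strand, GRCm38.p6) is shown because the genes differ in ratio. Its CpG observed over expected was 0.722, and its GC box (GGGCGG) is in capitals.
6030443J06Rik promoter: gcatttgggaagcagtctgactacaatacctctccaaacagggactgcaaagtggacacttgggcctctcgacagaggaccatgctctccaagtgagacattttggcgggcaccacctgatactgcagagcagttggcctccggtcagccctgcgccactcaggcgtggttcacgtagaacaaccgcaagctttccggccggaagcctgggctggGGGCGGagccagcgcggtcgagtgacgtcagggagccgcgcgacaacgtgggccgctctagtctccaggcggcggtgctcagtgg
Gm28187 followed with 66 and 339 counts (-2.47), and Gm38324 with 225 and 532 (-1.36). AU020206, the most abundant of these after Platr7, had 1164 and 2271 counts (-1.09, interval -1.19 to -0.98). A730036I17Rik had 626 and 1270 counts (-1.14), C330002G04Rik 170 and 352 (-1.17) and Gm17322 197 and 386 (-1.09). With scaling by total counts, AU020206 and Gm17322 were within 2-fold.

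Higher in replicate 1, Gm13073 had 176 and 19 counts (log2 ratio 3.03, interval 2.4 to 3.86) and Gm13404 had 89 and 19 (2.05, interval 1.38 to 2.90). These were the only lincRNAs over 4-fold higher and were named after their values were seen. Among lincRNAs averaging 200 counts or more, AI427809, named Mexis in RefSeq and known for its regulation of the cholesterol transporter gene Abca1, had 546 and 199 counts (1.33, interval 1.10 to 1.58). Abca1 itself had a ratio of 0.30. Gm27167 had 316 and 135 counts (1.10), and Gm807 had 345 and 219 (0.53). Gm53, in the Hoxb region near Hoxb9, had 675 and 495 counts (0.32), Gm1070 850 and 635 (0.30), and Gm26917 3426 and 2622 (0.26).

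Position relative to coding genes was described from the nearest protein-coding start on the same chromosome with at least 50 counts on average. Of the 163 lincRNAs, 62 pointed away from that neighbour, 73 lay on its strand and 28 pointed towards it. Within 5 kb lay 36 of them, 26 of which were divergent. Of these 36, 30 had a log2 ratio within 1 of that of the neighbour (83.3%), against 92 of the 127 farther away (72.4%). The Pearson correlation between lincRNA and neighbour was 0.33 over all 163 and 0.39 over the 36 (Spearman 0.34 and 0.50), across genes that share the same 2 libraries. The median log2 ratio of the 36 was -0.63 and that of their neighbours -0.11.

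Of the 40 lincRNAs past 2-fold, 5 had a neighbour past 2-fold in the same direction (12.5%). Over all genes 4.76% were past 2-fold lower and 11.5% higher, and the share of 12.5% rests on 5 pairs. Whether the share exceeds the background was not tested. The 5 were Gm26624 with Zfp991, Gm1322 with Xirp2, Gm26841 with Mcts2, D7Ertd128e with Ffar3 and Gm13404 with Mvb12b, named after their values were seen. Gm26624, Gm26841, Gm13404 and the neighbour Ffar3 had under 50 counts in 1 library. They reached the minimum only through the library where they were high, and so had to differ. D7Ertd128e had 223 and 67 counts (1.60), and Ffar3 a ratio of 2.51. A contrasting pair was Pvt1 and Myc, 52.6 kb apart on chromosome 15, a region known for joint amplification in tumours. Pvt1 had 554 and 483 counts, a ratio of 0.08 (interval -0.10 to 0.25), while Myc had a ratio of -2.27. 5930412G12Rik, named Fzd10os in RefSeq, starts 151 bases from Fzd10, a Wnt receptor gene, and had 314 and 79 counts (1.86) with Fzd10 at 0.59.

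**Figure D5:**
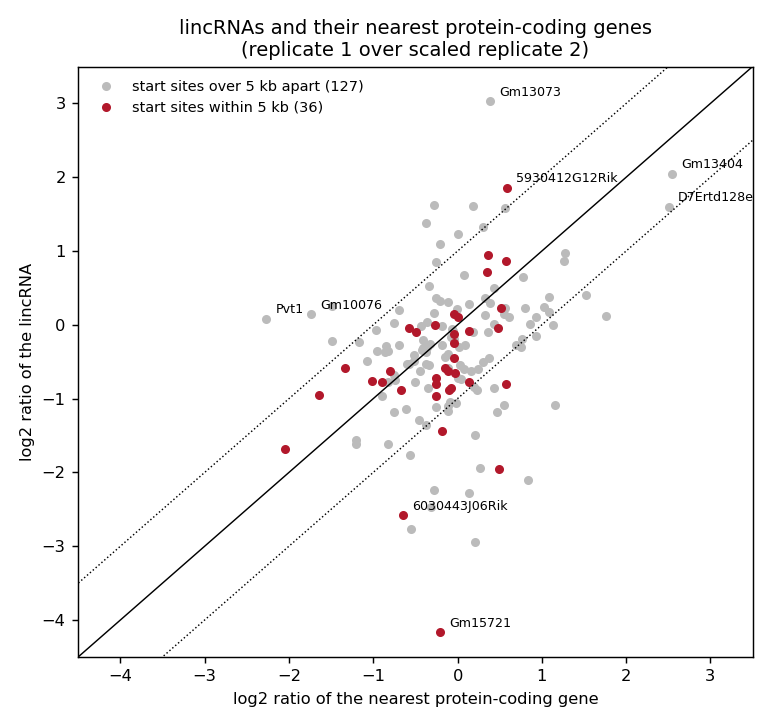
Log2 ratio of replicate 1 over scaled replicate 2 for each of 163 lincRNAs (y axis) and its nearest protein-coding gene (x axis), with the 36 whose start sites lie within 5 kb in red and the others in grey. The solid line marks equal ratios and the dotted lines a difference of 1. Gm15721, 6030443J06Rik and Gm13073 lie far from the solid line, and 5930412G12Rik lies just past the upper dotted line. Pvt1 and Gm10076 lie to the left of the solid line.

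The lincRNAs were spread over all 19 autosomes, with 19 each on chromosomes 1 and 2 and 3 on chromosome 12. Chromosome medians ran from -0.80 on chromosome 12 to 0.11 on chromosome 6. On chromosome 15, where 504 protein-coding genes had a median of 0.59, the 4 lincRNAs had a median of -0.04, against -0.30 for the 159 on other autosomes. Gm2093 was the lowest of the 4 at 51 and 82 counts (-0.80) and 2610037D02Rik the highest at 101 and 48 (0.94).

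Promoters of 300 bases, 250 before and 50 after the start, were given by RefSeq for 104 start sites of 90 lincRNAs and for 32851 start sites in all. Motifs were searched on both strands, and a match is a description of the letters only. CpG observed over expected was above 0.6 in 33.7% of lincRNA promoters, against 35.8% of all promoters and 68.1% of those of the protein-coding genes with at least 50 counts. The GC box GGGCGG followed the same order, in 35.6%, 35.7% and 62.6%. In the same order, CCAAT occurred in 40.4%, 37.4% and 37.6%, and TATAAA in 7.69%, 13.6% and 6.94%. The E-box CACGTG was in 8.65%, 7.15% and 9.80%, and the ETS motif CCGGAAGT in 7.69%, 3.89% and 7.85%. For TATAAA, the E-box and the ETS motif, lincRNA promoters were thus nearer to those of the expressed protein-coding genes than to all promoters.

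The octamer ATGCAAAT, the motif of POU proteins such as OCT4 (Pou5f1), was found in 6 lincRNA promoters (5.77%), against 1.74% of all promoters and 1.29% of the protein-coding ones. The 6 are shown because OCT4 is a core pluripotency factor of these cells, as 60 bases around the motif (capitals) on the transcript strand. In GRCm38.p6 coordinates, 2700038G22Rik lies at chr5:23850355-23850414 (plus), 4833407H14Rik lies at chr19:53460550-53460609 (plus), D230017M19Rik lies at chr1:72243958-72244017 (plus), Gm10451 lies at chr12:76444433-76444492 (plus), Gm20939 lies at chr17:94864680-94864739 (plus), Tmem250-ps lies at chr2:26139545-26139604 (minus).
2700038G22Rik: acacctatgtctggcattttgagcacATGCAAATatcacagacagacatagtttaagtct
4833407H14Rik: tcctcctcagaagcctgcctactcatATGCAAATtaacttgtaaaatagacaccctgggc
D230017M19Rik: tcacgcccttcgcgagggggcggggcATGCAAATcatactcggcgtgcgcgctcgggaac
Gm10451: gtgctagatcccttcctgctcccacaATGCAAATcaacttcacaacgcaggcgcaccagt
Gm20939: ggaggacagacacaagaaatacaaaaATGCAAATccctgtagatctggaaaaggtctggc
Tmem250-ps: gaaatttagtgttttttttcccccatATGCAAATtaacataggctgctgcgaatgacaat
The motif began between 9 and 216 bases before the RefSeq start. None of the 6 was past 2-fold between the libraries, against 16.2% of all genes and 24.5% of the 163 lincRNAs, and 6 genes are too few to tell from the rest. Gm20939 was the most abundant of them with 1838 and 2245 counts (log2 ratio -0.41), followed by Tmem250-ps with 844 and 776 and Gm10451 with 736 and 834. 4833407H14Rik had 196 and 273 counts and overlaps Mirt1, which had 226 and 129. AU020206, past 2-fold lower in replicate 1, has 3 inverted copies of CCAAT and a GC box in the 54 bases before its start, shown in capitals (chr7:75782071-75782370, minus strand, GRCm38.p6).
AU020206 promoter: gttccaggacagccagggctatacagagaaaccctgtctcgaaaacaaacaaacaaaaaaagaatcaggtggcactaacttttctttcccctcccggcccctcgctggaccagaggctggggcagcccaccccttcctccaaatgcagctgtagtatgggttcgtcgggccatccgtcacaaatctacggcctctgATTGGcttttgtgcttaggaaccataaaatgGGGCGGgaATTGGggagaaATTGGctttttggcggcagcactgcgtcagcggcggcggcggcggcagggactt

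At the count minimum, the lincRNAs just inside were Gm26899 with 44 and 59 counts, Gm15721 with 5 and 98, and Gm26669 with 38 and 65. Just outside were Platr1 with 44 and 53, Gm17354 with 62 and 34, and Gm28806 with 61 and 35. In 28 of the 163, 1 library was under 50 counts, and 135 had 50 or more in both.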

How the data were processed

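RNA was measured in 2 Dicer_KO mESC libraries, grouped by the genotype label. Per the paper's methods, the authors purified polyA RNA, made stranded paired-end libraries, trimmed reads with Trimmomatic, aligned them to mm10 (GRCm38) with STAR (version 2.4.2a) and assigned them to Ensembl genes with featureCounts (version 1.4.5-p1), where reads falling on overlapping regions were not counted. What was deposited are raw counts, with no normalization. The strand setting and the treatment of multiple hits in gene counts are not given in the sources used here, so genes with copies or overlaps are uncertain.

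Biotypes, positions and lengths came from GENCODE M21. Of the listed identifiers, 1167 had no entry there. The lincRNAs and gene lists were chosen with earlier results of these data known. Replicate 2 was scaled to replicate 1 by TMM (edgeR 4.0.16, R 4.3.3; factor 1.09), and log2 ratios used a pseudocount of 1. No test was made, as both libraries belong to 1 group. Named genes were Dicer1, the 10 highest by CPM and by CPM per kb, the 10 highest and 10 lowest ratios among lincRNAs averaging 200 counts or more, all list genes, 3 on each side of the minimum, the extremes on chromosome 15, and neighbours of named genes. Sequences came from RefSeq tables and GENCODE transcripts. Steps were checked on simulated data. Alternatives were total counts, DESeq2 (1.42.0) size factors, raw counts, other minimums, pseudocount, threshold and length, leaving out a library or overlapping genes, and near neighbours only.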

Additional observations from a re-analysis of the deposited data

How the results depend on the processing

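No paired analysis was possible because there was a single group, with no second arm to pair. Other count minimums changed the sizes most. With a minimum mean of 10 counts there were 382 lincRNAs, 55 over 2-fold higher and 65 over 2-fold lower in replicate 1, and the median log2 ratio was -0.21 in place of -0.30. With a minimum of 100 counts, 6 were higher and 18 lower. With no filter there were 1058, with 182 higher and 275 lower, a median log2 ratio of -0.07, a median absolute log2 ratio of 1.00 and a difference of 0.72 between chromosome 15 and the other autosomes. The shares of all genes at the minimums of 10 and 100 counts and with no filter were not computed. The numbers past 2-fold at these settings therefore have no background beside them. At 4-fold with the minimum of 50, 2 were higher and 8 lower, against 2.79% and 0.894% of all genes.

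The mean share of counts, 0.565%, was 0.185% without lincRNAs that overlap an exon and, in an alternative chosen after seeing the data, 0.304% without Gm42418 and Gm26917. From either library alone, 160 to 161 lincRNAs reached 50 counts. The 163 chosen on both libraries took 0.526% of the counts in replicate 1 and 0.603% in replicate 2. Of those within 5 kb of a coding start, 30 were within 2-fold of the neighbour, against 122 of all. Of 208 recomputed ratios of named genes, 24 left their counting interval, and Lncenc1 and Platr20 changed sign under total or raw counts. The same scalings moved Platr6, Gm17322, AU020206, Mir9-3hg and 2610037D02Rik across the 2-fold line. Medians of the pluripotency, widely expressed and miRNA host lists kept their sign under the scalings and pseudocount run. With 2 libraries, depth limits single genes near 50 counts most.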

Other observations

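Several transcripts of the same kind carry another GENCODE biotype and so lay outside the selection. Platr14, a processed transcript, had 3001 counts in replicate 1 and 1686 in replicate 2, and Panct2, an antisense gene, had 1257 and 622. Platr16 had 205 and 430 counts and Platr8 had 29 and 140. Tug1, annotated as antisense, had 6093 and 7856 counts, and Dleu2 had 1185 and 1062. These transcripts lay on both sides of equal counts.

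The letters GCACTT pair with AAGUGC, a stretch inside the miR-17-5p seed AAAGUGC that the miR-290 family seed also holds. They were found in 54 of the 163 longest lincRNA transcripts, at 0.2175 per kb. Among protein-coding genes, 7000 of 12707 longest transcripts held them, at 0.252 per kb. Neat1 held 14 of them in 20771 bases.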
